A study of Homo sapiens with 6 samples.

Results

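The stratified squamous keratins are 9 genes of the table chosen by name, KRT5, KRT14, KRT15, KRT6A, KRT6B, KRT16, KRT17, KRT13 and KRT4, out of 14959 genes in all. Their mRNA was measured by RNA-seq in UM-SCC1, an established cell line grown from a human oral tumour of the head and neck squamous cell carcinoma (HNSCC) class. One group of 3 libraries came from cells transiently transfected with miR-204-5p mimics, synthetic RNAs that act as the mature microRNA, and the other group of 3 came from cells transfected with control mimics. The study's methods give 48 h of culture between transfection and harvest and name a lipid reagent that both groups received. No other line, dose or time was among these 6 libraries, so each value below describes 1 cell line at 1 time. The comparison asked which squamous keratin mRNAs differed between cells given miR-204-5p mimics and cells given control mimics.

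Keratins are the intermediate filament proteins of epithelia, and they are built as obligate pairs of an acidic type I and a basic type II chain. In stratified squamous epithelium, KRT5 and KRT14 form the network of the dividing basal layer, with KRT15 as a further basal type I chain. KRT6A, KRT6B, KRT16 and KRT17 are the activated keratins, low in most resting epidermis and raised in wounds, hyperproliferative states and many squamous carcinomas. KRT4 and KRT13 pair in the suprabasal cells of non-keratinizing mucosa such as the lining of the mouth and oesophagus. A microRNA acts mainly by pairing of its seed, bases 2 to 8, with complementary sites in the 3′ untranslated region (3′UTR) of an mRNA, where it lowers the stability or the translation of that mRNA.

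The microRNA is printed here because its seed defines the sites that were searched in the keratin transcripts. The mature strand, taken from RefSeq (GRCh38.p14, chr9:70810031-70810052, minus strand), is 22 bases long, and its seed is in capitals.
miR-204-5p: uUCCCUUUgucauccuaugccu
The sites searched were the 8mer AAAGGGAA and its shorter forms, that is the 7mer-m8 AAAGGGA or the 7mer-A1 AAGGGAA or the 6mer AAGGGA. None of the 9 keratins held any of these sites, the 6mer included, in its longest annotated 3′UTR, and those 3′UTRs were short, between 156 bases for KRT14 and 546 bases for KRT6A (GENCODE release 29 on GRCh38). Across 14649 genes of the table with an annotated 3′UTR, 27.1% held a match of 7 or 8 bases and 39.4% held any match. The only match in the transcripts that the table lists for the 9 genes was a 6mer in the 5′ untranslated region of KRT5 (chr12:52520423-52520428, minus strand), printed with its flanks and with the match in capitals.
KRT5: cccagttctggAAGGGAtaaaaaggggg
A match is a run of letters and not a measured binding site, and the absence of one concerns these regions only.

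The values are FPKM, fragments scaled to the length of the transcript and to the fragments of the library. A comparison between genes rests on the listed transcript of each, and a comparison between libraries rests on that scaling. The table holds no counts. The spacing of its lowest values, read as single fragments, put the depth at 13.0 to 16.4 M fragments per library, and 1 fragment on a transcript of 1 kb was worth 0.0611 to 0.0767 FPKM. Spearman correlations across all genes were 0.990 to 0.991 within a group and 0.973 to 0.976 between groups. Each gene was tested with limma on log2(FPKM + 1), two-sided, with Benjamini-Hochberg adjustment over all 14959 genes and a threshold of 0.05, and fold changes are given as miR-204-5p mimics minus control mimics on that scale. The labels do not say whether the libraries of a group came from separate cultures, so the p-values measure the spread between these libraries, which may be technical. Fewer cells expressing a keratin and less of its RNA per cell cannot be told apart in bulk RNA.

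The label of the line was checked against markers. All 8 squamous epithelial markers were in the table. Their summed level was 682 to 688 FPKM after miR-204-5p mimics and 698 to 708 FPKM in the controls, with SFN alone at 284 to 357 FPKM. The sum hides opposite shifts. With the mimics 5 of the 8 were called as lower (TP63, EPCAM, DSP, DSG3 and PERP). The other 3 were higher (CDH1, SFN and TRIM29), beside 16.8% lower and 23.9% higher of all genes. TP63, DSP, SFN and TRIM29 are counted again below among the anchoring genes and regulators. The 5 mesenchymal markers in the table summed to 10.8 to 12.2 FPKM with the mimics and 9.13 to 10.1 FPKM in the controls, nearly all of it COL1A1, and VIM stayed between 0.522 and 1.34 FPKM. The leukocyte list summed to 12.1 to 13.9 FPKM with the mimics and 16.2 to 17.2 FPKM in the controls, most of it CD14, while PTPRC did not exceed 0.546 FPKM and the endothelial markers did not exceed 0.269 FPKM in sum. The part of these differences in the keratin results was not tested.

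Of the 9 squamous keratins, 5 were downregulated in the cells with miR-204-5p mimics (KRT13, KRT16, KRT15, KRT14 and KRT5), 1 was upregulated (KRT6A), and KRT17, KRT4 and KRT6B did not pass the test. Over all genes of the table, 40.8% passed, 16.8% of all genes as lower and 23.9% as higher, so a call by itself was common in this comparison. That split depended on scaling: 2520 genes were lower and 3578 higher here, and 2885 and 3080 after library sums were made equal. Of the 9 keratins, 8 had a mean of at least 1 FPKM, a level at which 5496 of 11504 genes passed, 2313 as lower and 3183 as higher. The 9 keratins had a median log2 fold change of -0.43, and all genes one of 0.03. In 6 of the 9 the libraries of the groups did not overlap, 5 lower and 1 higher, against 53.6% of all genes, 22.7% lower and 30.9% higher. By role, all 3 basal keratins were lower, 1 of the 4 activated keratins was lower and 1 higher, and 1 of the 2 suprabasal keratins was lower. By type, 4 of the 5 type I chains were lower, with a median log2 fold change of -0.83, and of the 4 type II chains 1 was lower and 1 higher, with a median of 0.12.

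**Figure D1:**
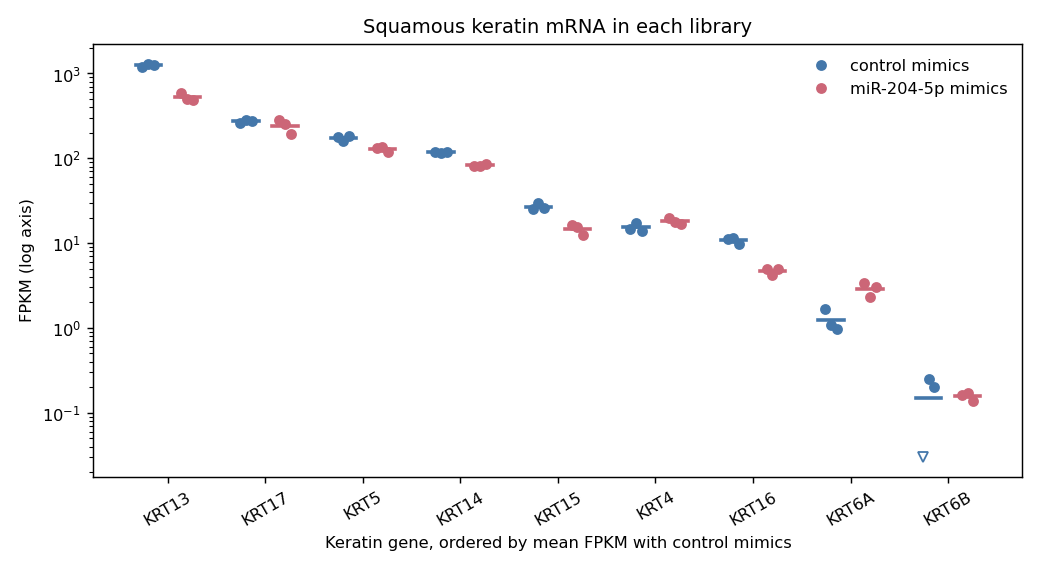
FPKM of each squamous keratin (log axis) in the 3 libraries with control mimics and the 3 with miR-204-5p mimics, with a line at each group's mean; the open triangle marks the control library in which KRT6B is listed at 0. KRT13 stands highest in both groups, and its libraries with miR-204-5p mimics (486 to 591 FPKM) lie below its controls (1179.8 to 1306 FPKM).

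KRT13, the type I chain of the suprabasal mucosal pair, was the most abundant squamous keratin and had the largest fall on the log2 scale. It is encoded on the minus strand at chr17:41500981-41505597 (GRCh38, ENSG00000171401, 8 exons in the listed transcript). Its level was 591, 496 and 486 FPKM in miR-204-5p mimics replicates 1, 2 and 3 and 1179.8, 1306 and 1244 FPKM in control mimics replicates 1, 2 and 3. Every library with the mimics was below every control, and the mean with the mimics was 42.2% of the control mean. The limma estimate was -1.25 (SE 0.0846, 95% interval -1.45 to -1.04, adjusted p = 0.000152). KRT13 was the gene with rank 15 of the table by mean FPKM in the controls and rank 50 with the mimics. An antisense gene, AC019349.1, overlaps KRT13 on the opposite strand, and without a stated strand setting reads from the pair cannot be told apart.

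KRT4, the type II partner of KRT13, did not fall with it. The KRT4 level was 19.8, 17.8 and 16.9 FPKM with miR-204-5p mimics and 14.6, 17.4 and 13.9 FPKM with control mimics, at chr12:52806549-52814551 on the minus strand (ENSG00000170477). The groups overlapped through control replicate 2, which lay above mimics replicate 3. The limma estimate was 0.23 (SE 0.0949, 95% interval 0.01 to 0.46, adjusted p = 0.0943), and without control replicate 2 it was 0.32 with an adjusted p of 0.0258.

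KRT5 and KRT14, the basal pair, were both lower and by similar amounts. KRT5, the type II chain (chr12:52514575-52520687, minus strand, ENSG00000186081), was at 133, 136 and 118 FPKM with miR-204-5p mimics and at 179, 159.9 and 184 FPKM with control mimics. The groups did not overlap, and the mean with the mimics was 74.0% of the control mean, with a log2 fold change of -0.43 (SE 0.0749, limma adjusted p = 0.00482). KRT14, the type I chain (chr17:41582279-41586921, minus strand, ENSG00000186847), was at 80.6, 80.8 and 85.9 FPKM with the mimics and at 119, 115 and 119.8 FPKM in the controls. Its 3 libraries with the mimics were all lower, at 70.0% of the control mean, with the smallest SE of the 9 keratins (log2 fold change -0.51, SE 0.0395, limma adjusted p = 0.000229).

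KRT15, a basal type I chain that also marks stem cells of the hair follicle bulge, fell further than the basal pair. Its level was 16.5, 15.5 and 12.5 FPKM with miR-204-5p mimics and 25.3, 29.6 and 26.2 FPKM with control mimics (chr17:41513743-41522413, minus strand, ENSG00000171346). The groups were separate, the mean with the mimics was 54.8% of the control mean, and the log2 fold change was -0.83 (SE 0.108, limma adjusted p = 0.00152). The table lists KRT15 with a transcript of 5237 bases, while its other annotated coding transcripts run from 903 to 3758 bases, so its level relative to the other keratins rests on that choice.

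The activated keratins did not move as a group. KRT16, a type I chain (chr17:41609778-41612753, minus strand, ENSG00000186832), was at 4.98, 4.20 and 5.01 FPKM with miR-204-5p mimics and at 11.2, 11.4 and 9.90 FPKM with control mimics. All libraries with the mimics lay below the controls, at 43.7% of the control mean, with a log2 fold change of -1.05 (SE 0.0833, limma adjusted p = 0.000249). KRT6A, the type II chain that pairs with KRT16, went the other way. KRT6A (chr12:52487174-52493257, minus strand, ENSG00000205420) was at 3.36, 2.34 and 3.01 FPKM with the mimics and at 1.67, 1.08 and 0.970 FPKM in the controls, so its groups were separate with the mimics higher. The ratio of its means was 2.35, and the log2 fold change, which the added 1 FPKM makes smaller for a low gene, was 0.81 (SE 0.147, 95% interval 0.46 to 1.16, limma adjusted p = 0.00576).

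KRT17, a type I chain that many carcinomas express, was the second most abundant squamous keratin and did not pass the test. Its level was 283, 253 and 191 FPKM with miR-204-5p mimics and 262, 281 and 273 FPKM with control mimics (chr17:41619437-41624577, minus strand, ENSG00000128422). Mimics replicate 3 was the lowest of the 6 libraries and mimics replicate 1 the highest. The limma estimate was -0.18 (95% interval -0.51 to 0.14, adjusted p = 0.329), and without mimics replicate 3 it was -0.02. KRT6B (chr12:52446651-52452126, minus strand, ENSG00000185479) was close to the limit of detection in both groups. It was at 0.162, 0.173 and 0.136 FPKM with miR-204-5p mimics and at 0, 0.250 and 0.201 FPKM with control mimics, which at the inferred depth is at most 7.93 fragments, and its estimate was 0.02 (95% interval -0.19 to 0.22, limma adjusted p = 0.906). The other 8 keratins had a mean of at least 1 FPKM over the 6 libraries.

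KRT6A, KRT6B and KRT6C have closely related transcripts, so the split of reads between them is uncertain. Of all 100-base windows of the listed KRT6A transcript, 18.2% occur unchanged in a transcript of another gene, chiefly KRT6C (17.6%) and KRT6B (10.7%). For KRT6B the share was 24.6%, for KRT16 7.18% and for KRT14 5.95%, and it was 0 for KRT15, KRT13 and KRT4. KRT6C itself did not exceed 0.157 FPKM in any library.

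**Figure D2:**
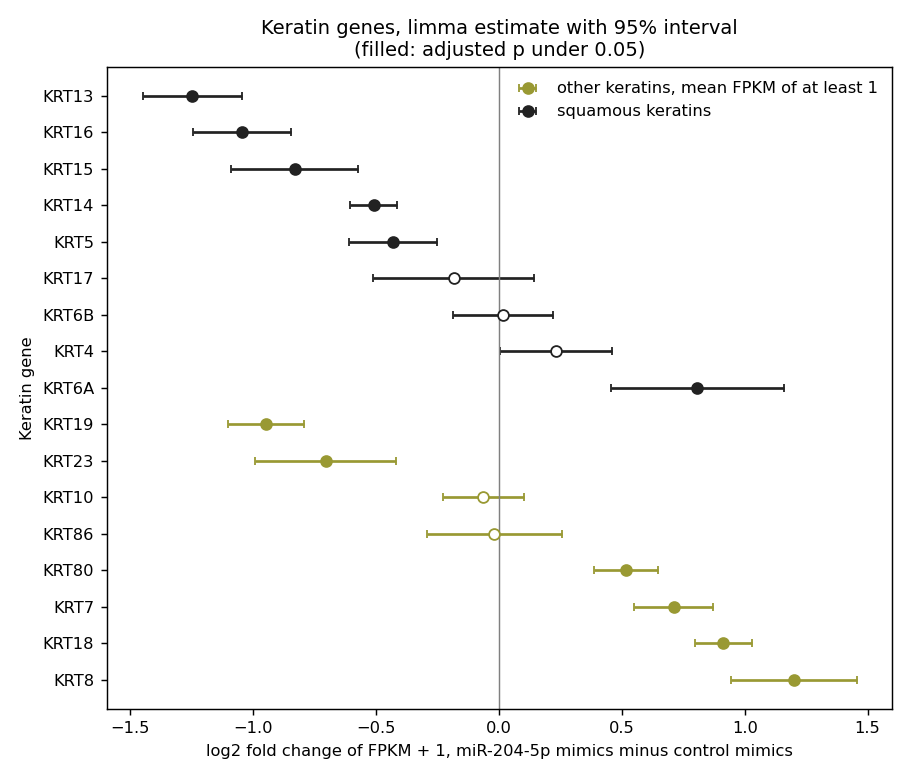
The limma log2 fold change of FPKM + 1 (miR-204-5p mimics minus control mimics, horizontal axis) with its 95% interval for the 9 squamous keratins in black and for the 8 other keratins with a mean of at least 1 FPKM in olive; filled points have an adjusted p under 0.05. KRT13 lies farthest to the left at -1.25 and KRT8 farthest to the right at 1.20.

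The order of the 9 levels changed at 1 place only. In the controls it ran KRT13, KRT17, KRT5, KRT14, KRT15, KRT4, KRT16, KRT6A and KRT6B from the highest mean FPKM to the lowest, and with miR-204-5p mimics KRT4 stood above KRT15. In neither group did the libraries of genes next to each other in this order overlap. The place of KRT15, and so this change, rests on its listed transcript of 5237 bases. Its other coding transcripts, of 903 to 3758 bases, would give a higher FPKM for the same fragments. KRT13 was at 4.57 times the mean FPKM of KRT17 in the controls and at 2.17 times with the mimics.

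The total of the 9 keratins was led by KRT13. Their summed level was 1019 ± 108 FPKM (SD, n = 3) after miR-204-5p mimics and 1862 ± 65.6 FPKM (n = 3) after control mimics, 54.7% of the control mean. Without KRT13 the sum was 494 ± 56.3 FPKM with the mimics and 619 ± 8.61 FPKM in the controls, 79.9% of the control mean. By role, the mean with the mimics was 43.1% of the control mean for the suprabasal pair, 70.9% for the basal keratins and 88.0% for the activated keratins, and the activated sum overlapped between groups (199 to 292 FPKM against 275 to 294 FPKM). KRT13 made up 51.5 ± 1.87% of the 9-keratin sum with the mimics and 66.8 ± 1.09% in the controls, and KRT17 made up 23.6 ± 2.47% and 14.6 ± 0.0250%. The share of KRT15 was 1.45% in both groups.

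**Figure D3:**
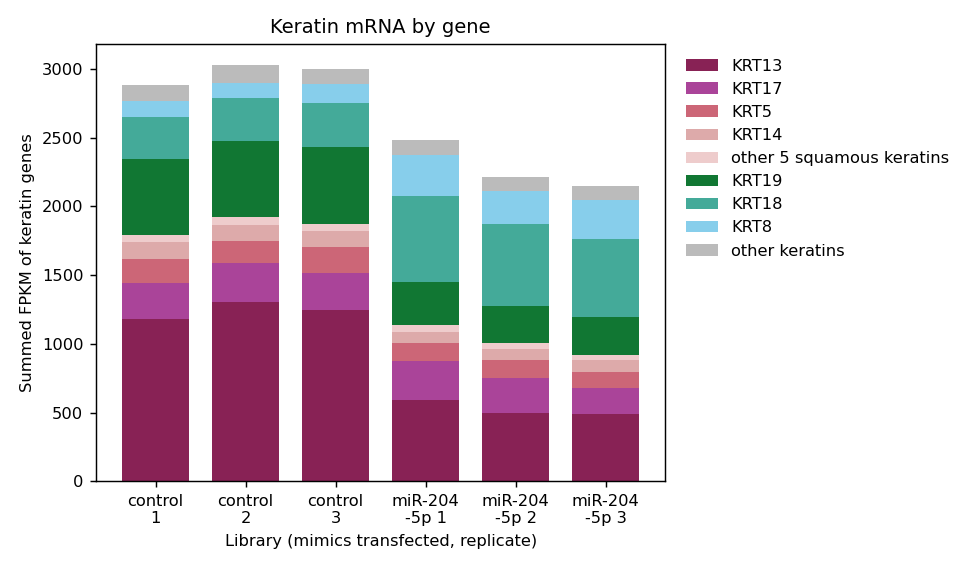
Stacked FPKM of all 34 keratin genes of the table in each of the 6 libraries (vertical axis from 0), with the squamous keratins at the base in red shades, KRT19, KRT18 and KRT8 above them and the other keratins in grey. The squamous total is 1792 to 1922 FPKM in the 3 control libraries and 918 to 1133 FPKM in the 3 that received miR-204-5p mimics, and the KRT18 and KRT8 layers are thicker in the latter.

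The summed type I level, most of it KRT13, fell further than the summed type II level. KRT5 was the only type II gene called as lower. The summed type I squamous keratins were 869 ± 99.5 FPKM after miR-204-5p mimics and 1671 ± 73.2 FPKM after control mimics (SD, n = 3 each), 52.0% of the control mean. The summed type II squamous keratins were 150.1 ± 10.6 FPKM and 191 ± 10.9 FPKM, 78.6% of the control mean. The ratio of the type I to the type II sum was therefore 5.78 ± 0.404 with the mimics and 8.78 ± 0.851 in the controls. This difference rests largely on KRT13, at 525 FPKM with the mimics and 1243 FPKM in the controls. Without KRT13, the other 8 squamous keratins of both types together were at 79.9% of the control mean. For all keratins of the table the ratio of type I to type II was 3.95 ± 0.274 and 7.92 ± 0.696, the higher value again in the controls. There the type I sum with the mimics was 69.0% of the control mean, while the type II sum was 138% of it.

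Ratios of partner chains within a library do not move with the scaling of that library. The FPKM ratio of KRT5 to KRT14 was 1.57 ± 0.170 after miR-204-5p mimics and 1.48 ± 0.0757 after control mimics (SD, n = 3 each), a mean log2 difference of 0.08 (two-sided exact permutation test, p = 0.6, adjusted over 3 ratios p = 0.6). The ratio of KRT4 to KRT13 was 0.0347 ± 0.00119 with the mimics and 0.0123 ± 0.00110 in the controls, a mean log2 difference of 1.50. The ratio of KRT6A to KRT16 was 0.612 ± 0.0587 with the mimics and 0.114 ± 0.0303 in the controls, a mean log2 difference of 2.45. For these last pairs every library with the mimics lay above every control, which gives an exact permutation p of 0.1, the smallest that 3 libraries against 3 allow, and an adjusted p of 0.15 each. KRT6B to KRT17 has no log ratio in control replicate 1, where KRT6B is listed at 0, and was not tested.

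**Figure D4:**
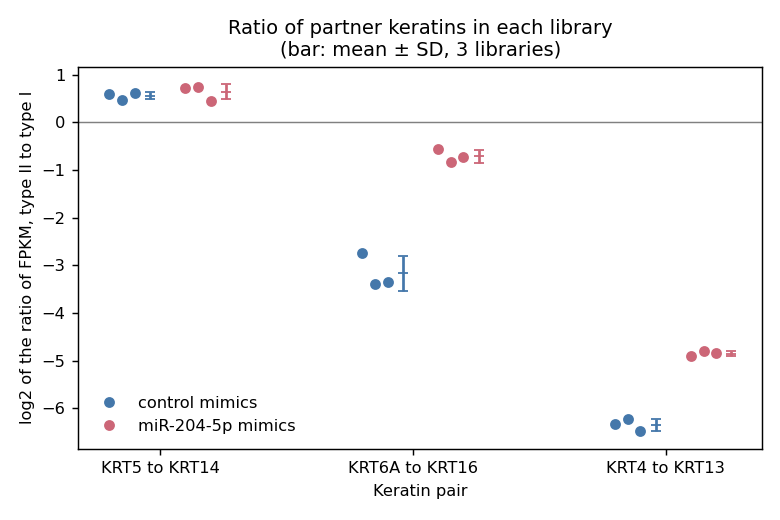
The log2 ratio of type II to type I FPKM for 3 keratin pairs in each library, with bars for the mean ± SD of the 3 libraries of a group. The groups overlap for KRT5 to KRT14, and the libraries of cells given miR-204-5p mimics lie higher for KRT6A to KRT16 and for KRT4 to KRT13.

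The squamous keratins lie in 2 gene clusters together with the other keratins. In the type II cluster (chr12:52168996-52952900), which also holds the type I gene KRT18, 2 of 18 keratins were lower and 6 higher. In the type I cluster (chr17:40654665-41624577), 7 of 16 keratins were lower and 1 higher. Of all genes, 16.8% were lower and 23.9% higher, and the 8 keratins called in each cluster stand beside 40.8% called of all genes. Within this type I cluster, 5 of 7 genes of other kinds in the table were higher and none lower, all at low levels, beside the same 23.9% higher of all genes. They were TMEM99 and the keratin-associated protein genes KRTAP2-3, KRTAP2-4, KRTAP4-9 and KRTAP4-12, and the highest of them, TMEM99, rose from 3.51 ± 0.350 FPKM in the controls to 4.72 ± 0.523 FPKM (n = 3 each). The keratin-associated protein genes form a family of near copies, so the split of reads between them is uncertain.

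The simple epithelial keratins KRT8, KRT18 and KRT19, the filament chains of single-layered epithelia, gave the other large part of the keratin mRNA. KRT8 (119 ± 12.3 FPKM in the controls and 275 ± 32.4 FPKM with miR-204-5p mimics) and KRT18 (317 ± 7.34 and 597 ± 31.0 FPKM) were higher, while KRT19 (554 ± 4.25 and 287 ± 25.4 FPKM) was lower. The transcript listed for KRT8 spans the start of KRT18 on the other strand. The 9 squamous keratins made up 62.6 ± 0.709% of all keratin FPKM in the controls and 44.6 ± 1.62% with the mimics. Among all 25 other keratins, 4 were lower (KRT19, KRT23, KRT34 and KRT78) and 6 higher (KRT8, KRT18, KRT7, KRT80, KRT3 and KRT9), a share called close to the 40.8% of all genes. That share joins 2 unlike groups. Of the 8 with a mean of at least 1 FPKM, 6 were called, beside 5496 of 11504 of all genes at that level. Of the 17 under 1 FPKM, 4 were called. KRT34, KRT78, KRT3 and KRT9 were under 1 FPKM in every library, and KRT9 was not called under 8 of its alternatives. KRT10, the keratinized suprabasal type I chain, was at 19.5 ± 1.29 FPKM with the mimics and 20.4 ± 1.44 FPKM in the controls (limma adjusted p = 0.499). After equal sums were set for each library, 6 other keratins were lower and 6 higher, and after quantile normalization 7 were lower and 5 higher.

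Genes of proteins that anchor or bind keratin filaments moved in both directions. Of 14 such genes, 7 were lower, 5 higher and 2 not called, beside 16.8% lower and 23.9% higher of all genes. The largest fall was that of JUP, which encodes plakoglobin of the desmosomal plaque, from 93.5 ± 1.08 FPKM in the controls to 67.5 ± 2.17 FPKM in the cells given miR-204-5p mimics (-0.46 on the log2 scale). DSP, which encodes desmoplakin, the linker from plaque to keratin, was at 92.0 ± 4.26 FPKM in the controls and 73.2 ± 2.38 FPKM with the mimics (-0.32). TCHP (-0.44) and FAM83H (-0.35), which bind keratin filaments, and the plaque genes PPL (-0.27), PKP1 (-0.26) and PKP3 (-0.14) were also lower. PKP2, a plakophilin of heart muscle and simple epithelia, rose most, from 5.66 ± 0.667 to 13.3 ± 1.18 FPKM (1.10), and TRIM29, EPPK1, SFN and DST rose by 0.26 to 0.29 on the log2 scale. DST, PKP1, PKP3, EPPK1 and TCHP each lost the call under at least 1 alternative, DST under 9 of 13. PLEC, not called here, was called as lower under 4. EVPL, also not called here, was called as lower without control mimics replicate 2.

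Transcription regulators of squamous keratin genes were lower where they passed the test. Of 13 such genes, 8 were lower and none higher, beside 16.8% lower and 23.9% higher of all genes. TP63, the master regulator of stratified epithelium, was at 23.9, 28.1 and 30.1 FPKM in the libraries of cells given miR-204-5p mimics and at 57.6, 55.4 and 54.7 FPKM in the controls (log2 fold change -1.01, limma adjusted p = 0.000276). OVOL1, a zinc finger factor of epidermal differentiation, was at 2.95 ± 0.295 FPKM with the mimics and 7.21 ± 0.654 FPKM in the controls (-1.06). ZNF750, a target of p63 in differentiating keratinocytes, was at 5.44 ± 0.567 and 10.1 ± 0.508 FPKM (-0.79), and KLF5 at 21.3 ± 1.27 and 33.6 ± 1.16 FPKM (-0.63). GRHL2 (-0.42), GRHL3 (-0.39), TFAP2C (-0.30) and SOX2 (-0.20, under 1 FPKM) completed the 8. GRHL3 lost the call under 5 of 13 alternatives and SOX2 under 4 of 12. TFAP2A, KLF4, SP1, FOSL1 and NFE2L2 did not pass, though TFAP2A was called as lower without control mimics replicate 3. For the anchoring genes and regulators together 20 of 27 passed, beside 40.8% of all genes. Of the 27, 15 were lower, beside 16.8% of all genes. All genes include many at low levels, which are called less often. Among the 27, 26 had a mean of at least 1 FPKM, a level at which 5496 of 11504 genes passed, 2313 as lower.

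**Figure D5:**
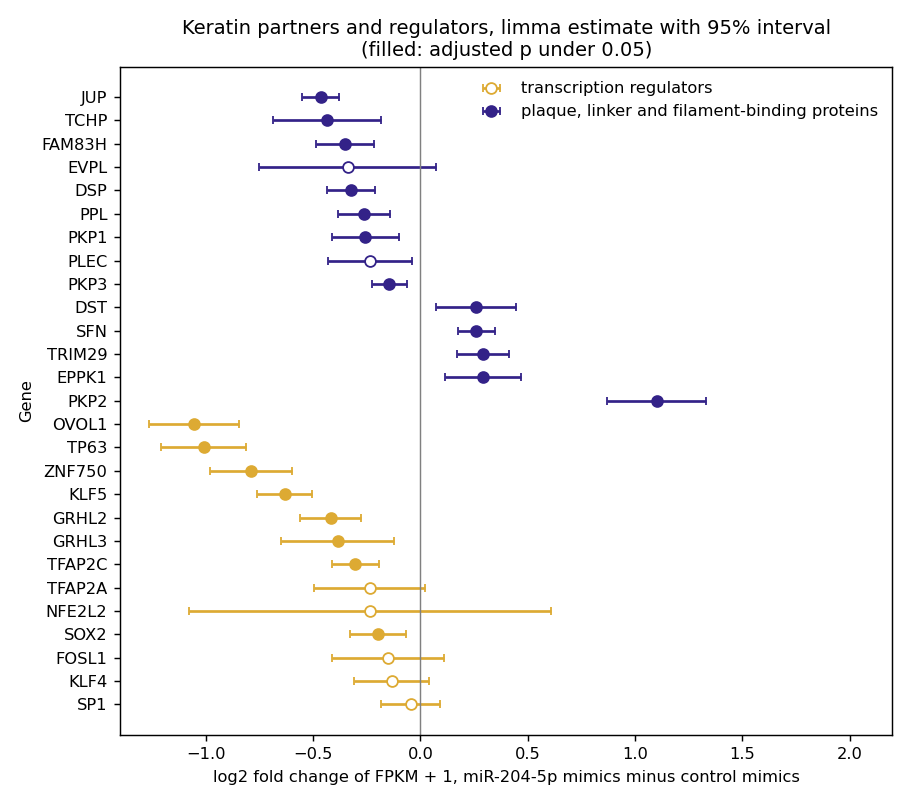
The limma log2 fold change of FPKM + 1 (miR-204-5p mimics minus control mimics, horizontal axis) with its 95% interval for 14 filament anchoring and binding genes in indigo and 13 transcription regulators in gold; filled points have an adjusted p under 0.05. All 8 filled regulators lie to the left of 0, while the anchoring genes lie on both sides, with PKP2 farthest to the right at 1.10.

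Unlike the 9 keratins, some of these genes held seed matches in their longest annotated 3′UTR, and the sites are printed to set them beside the keratins' lack of one. Of the 27 genes, 5 held a match of 7 or 8 bases, 18.5% beside 27.1% of all genes, and 2 of these were among the 8 lower regulators. These were TP63 with a 7mer-m8 (chr3:189897031-189897037, plus strand) and OVOL1 with an 8mer (chr11:65796756-65796763, plus strand), each in its last exon, and the lower plaque gene PKP1 held a 7mer-A1 (chr1:201332810-201332816, plus strand). Capitals mark the match.
TP63: attgaatgttAAAGGGAtatttttttc
OVOL1: cttgtgggccAAAGGGAAaaacaggcag
PKP1: gtgggcagggAAGGGAAgccgggggct
The other 2 genes, SP1 with an 8mer and TFAP2A with a 7mer-A1, did not pass the test. The SP1 site lies outside the span of the transcript listed for SP1. The TFAP2A site lies in exon 7 of a transcript other than the listed one, which has 3 exons. The PKP1 site also comes from a transcript other than the listed one, though it lies within the listed span. The levels given for SP1, TFAP2A and PKP1 may thus not follow an mRNA with the site. With the 6mer included, 33.3% of the 27 genes held a match, beside 39.4% of all genes. The lower genes GRHL2, PKP3 and TCHP held a 6mer only, as did the higher gene PKP2. The PKP3 site lies outside the span of its listed transcript. Those of GRHL2 and TCHP come from transcripts other than the listed ones, so the same limit holds for these lower genes. KLF5, ZNF750, GRHL3, TFAP2C, SOX2, JUP, DSP, PPL and FAM83H were lower and held no site in their longest annotated 3′UTR.

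The genes whose levels ran most like those of a keratin were sought among 5480 genes with a mean of at least 10 FPKM, by Pearson's correlation of log2(FPKM + 1) over the 6 libraries, for the most abundant keratin of each role. These libraries form 2 groups, so a high value mostly restates a difference between groups, and it is given as a description. For KRT13 the nearest included CLDN1 (r = 0.998), a tight junction claudin, and PPP1CA (r = 0.998), and 618 genes exceeded 0.95. For KRT5 they were EIF3C (r = 0.997), BABAM1 (r = 0.996) and CBX1 (r = 0.996), and 135 genes exceeded 0.95. For KRT17, whose groups overlapped, they were TECR (r = 0.974), CTDSP1 (r = 0.966) and MUC20 (r = 0.965), and 9 genes exceeded 0.95.

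Under the 13 alternatives tried for each gene, KRT13, KRT16, KRT15, KRT14, KRT5 and KRT6A kept their direction and their call in every one. KRT13 ranged from -1.34 to -1.20, KRT16 from -1.18 to -0.98, KRT15 from -0.91 to -0.72, KRT14 from -0.55 to -0.49 and KRT5 from -0.49 to -0.37 on the log2 scale. KRT6A, with 0.72 to 1.19, varied most, and its upper value came with the smaller pseudocount of 0.1 FPKM.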

How the data were processed

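Total RNA of UM-SCC1 cells was sequenced by the authors on an Illumina HiSeq instrument after TruSeq library preparation. The submitters' processing notes name HISAT2, StringTie and hg38, with versions not given in the sources used here. The deposited table holds FPKM values computed by the authors for 14959 genes in 6 libraries, with 1 listed transcript per gene, and columns of the authors' own comparison (fold change, p-value and FDR), which were not used. All 6 value columns were mapped to the labels. The study's own test needs counts, so limma 3.58.1 (R 4.3.3, eBayes with trend) was fitted to log2(FPKM + 1) of all genes, which were neither filtered nor rescaled. Scripts ran in Python 3.11.15 with scipy 1.17.1 and were tested on simulated data. Depth was inferred from the commonest low FPKM multiplied by transcript length. Of values between 0.5 and 4.5 fragments, only 11.1% to 15.5% fell within 0.02 of a whole number, so counts were not recovered and no count test was run. The library sums ran from 276822 to 291864 FPKM.

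Of 14959 listed transcripts, 14951 were found in GENCODE release 29 (GRCh38), 14844 with the same coordinates, and all 9 keratins among those found. Several genes (KRT10, SP1, TFAP2A, NFE2L2, EVPL and PKP3) are listed with a short transcript. Sums, shares and ratios of FPKM are means ± SD over 3 libraries, and ratios were compared by two-sided exact permutation tests. Named genes are every keratin, every anchoring or regulator gene past the threshold, and the 3 genes most like the most abundant keratin of each role, of which 1 is not reported here. KLF4, FOSL1 and others that did not pass, and the neighbours of the keratin clusters, were named in addition, after their values were seen. The members and the gene lists were chosen with earlier results of these data known. Alternatives were a pseudocount of 0.1, a mean of at least 1 FPKM, equal library sums, equal medians, quantile normalization, no trend, a replicate block and each library left out.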

Additional observations from a re-analysis of the deposited data

How the results depend on the processing

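Of the 9 keratins, 6 were called under every alternative except without control mimics replicate 2, when KRT4 joined them at 0.32 (adjusted p = 0.0258) and 7 were called. The estimate of KRT6B changed sign under quantile normalization (-0.0037) and without control mimics replicate 1 (-0.082), and with single libraries left out it ran from -0.082 to 0.078 and that of KRT4 from 0.17 to 0.32. No value exists for KRT6B when a mean of at least 1 FPKM is required. With that filter 6 of the other keratins were called in place of 10, as fewer genes were tested. With single libraries left out, the other keratins called ran from 9 to 12, the anchoring genes and regulators from 15 to 19, and all genes from 4971 to 5371 in place of 6098. Same-numbered libraries did not deviate together (correlations of -0.0401, -0.0210 and -0.108 over 11504 genes). This gave no sign of pairing by number, but with 3 libraries per group it cannot exclude pairing. With a replicate block 6 keratins and 5096 genes in all were called. No scaling moved the median log2 fold change of all genes by over 0.1. The split of all genes did move, from 2520 lower and 3578 higher to 2885 and 3080 with equal sums. It was 2948 and 3106 with equal medians, and 3026 and 3043 with quantile normalization. The 9 keratins stayed at 5 lower and 1 higher under each of these scalings. KRT6A rests on 34.5 to 108 fragments and KRT6B on at most 7.93, the fewest of the 9 keratins.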
